A study of Mus musculus with 2 samples.

Results

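The heat shock chaperones described here are 10 genes taken by name from the 28692 genes counted: Hspa1a, Hspa1b, Dnajb1, Hsph1, Hsp90aa1 and Hspb1, which are classed as inducible, and Hspa8, Hsp90ab1, Hspd1 and Hspe1, which are classed as constitutive. They were followed in single cell RNA-seq of the stromal vascular fraction (SVF, the cells that remain when the fat cells of an enzyme-digested fat pad are removed) of gonadal white adipose tissue (gWAT). The control library came from male C57BL/6 mice labelled littermate wildtype, and the KO library from male C57BL/6 mice labelled Pgam1 knockout, both at 13 weeks of age and with no treatment named. The study's methods give littermate controls as carrying both floxed Pgam1 alleles (Pgam1 flox/flox) without Cre, so the floxed alleles are shared by both groups. In Adipo-Pgam1 KO mice both floxed Pgam1 alleles are cut by a Cre enzyme under the Adipoq promoter, which acts in adipocytes, so the gene is deleted in a cell type that the SVF mostly lacks. There was 1 library for each genotype and the number of mice in each was not given, so no test between genotypes was possible, no p-value is given, and every interval below is a 95% interval for counting error only.

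Heat shock proteins bind unfolded or partly folded proteins and help them to fold, to be carried or to be broken down. The Hsp70 proteins work in cycles driven by ATP, with J-domain partners that bring the client protein and exchange factors that release the nucleotide; Hsp90 takes over clients at a later stage, and the mitochondrial Hsp60 and Hsp10 form a closed folding chamber. When cells meet heat or other stress, heat shock factor 1 (HSF1) binds heat shock elements, which are inverted repeats of a short GAA unit, and the inducible members are transcribed within minutes. The constitutive members are made in most cells at all times. Hspd1 and Hspe1 are counted among them although heat shock also raises them, so the split into inducible and constitutive members is not a clean one. Enzyme digestion of a tissue at body temperature is itself known to switch on inducible heat shock genes and immediate early genes in some cells.

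The promoter letters of the inducible Hsp70 pair and of the mitochondrial pair are shown first, because they place these genes in relation to the heat shock element. Promoter windows from 250 bases before to 50 after each start site (RefSeq, GRCm38.p6) were matched for 7 of the 10 members, and none was matched for Hspa8, Hsp90aa1 and Hsp90ab1. The windows were searched on both strands for the 3-unit form GAANNTTCNNGAA and for its overlapping 2-unit forms GAANNTTC and TTCNNGAA. In the lines below the bases that belong to a match are in capitals.
Hspa1a and Hspa1b, 104 to 97 bases before the start: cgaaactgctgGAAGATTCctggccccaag
Hspb1, 117 to 110 bases before the start: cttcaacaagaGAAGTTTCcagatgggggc
Hspb1, 97 to 90 bases before the start: agatgggggcaGAACCTTCctggccccgcc
Hsph1, 33 to 26 bases before the start: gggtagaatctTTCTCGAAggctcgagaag
Hsph1, 37 to 49 bases after the start: TTCTGGAAAGTTC
Hspe1, 89 to 72 bases before the start: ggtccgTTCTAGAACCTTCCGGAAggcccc
Hspd1, 144 to 127 bases before its second start: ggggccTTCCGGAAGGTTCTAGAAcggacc

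The matches lie on the minus strand of chr17:34972253-34972260 for Hspa1a and of chr17:34959335-34959342 for Hspa1b, on the plus strand of chr5:135887802-135887809 and chr5:135887822-135887829 for Hspb1, and on the minus strand of chr5:149636362-149636369 and chr5:149636288-149636300 for Hsph1. Hsph1 has 2 annotated starts and the distances above are from the one further upstream; from the other, the same letters lie 54 to 47 bases before and 16 to 28 bases after it. Hspd1 and Hspe1, which encode Hsp60 and Hsp10, are read in opposite directions from chromosome 1, and their annotated genes overlap by 112 bases. Their 2 matches are the same bases, chr1:55088059-55088076, read from the minus strand for Hspd1 and from the plus strand for Hspe1. A 3-unit match was present for 3 of the 7 members with a window, the stretch after the start of Hsph1 and the shared stretch of Hspd1 and Hspe1, and in 0.662% of the 27025 genes with a window. A 2-unit match was present for 6 of the 7, all but Dnajb1, and in 17% of genes. These are matches of letters and do not show binding.

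Hspa1a (chr17:34969190-34972156, minus strand) and Hspa1b (chr17:34956436-34959238, minus strand) each consist of 1 exon with 9951 bases between the genes, and each encodes the inducible cytosolic Hsp70. Their promoter windows were 98.7% identical, with the 4 differences C44T, T47C, T249G and C276T between Hspa1a and Hspa1b, counted from 1 at the 5′ end of the window. Their open reading frames were 99.4% identical. The stretch after the stop codon, from which a 3′ library is read, was 47.3% identical, and the last 300 bases of the transcripts were 50.1% identical. Reads near the 3′ ends can therefore be told apart, whereas a read from the coding part could match both genes. How such reads were counted was not examined, so the pair is given both singly and summed. Hspa1a also overlaps Gm20481, a counted gene on the other strand. The open reading frames of Hspa1a and the constitutive Hspa8 were 74.1% identical, and those of Hsp90aa1 and Hsp90ab1 75.7%.

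The control matrix held 8522 barcodes and 42859406 UMIs (unique molecular identifiers, one for each captured RNA molecule), and the KO matrix 2730 barcodes and 13821581 UMIs. Cells were kept from 500 detected genes up, with no more than 10% of their UMIs from mitochondrial genes and without likely doublets, which left 3616 control and 937 KO cells, with a median of 6898 and 7494 UMIs. The libraries shared 9 barcodes, none of them among the kept cells. Of 25 clusters, 20 were named from markers and 12 cell classes with at least 20 cells in each library were compared, which held 90.9% of the kept control cells and 87.9% of the kept KO cells. Adipocyte markers summed to 10.2 and 7.26 CPM (UMIs of a gene for each 1000000 UMIs of the same cells) in control and KO, against 15791 and 15533 CPM for fibroblast markers. Pgam1 itself stood at 110 CPM in the control and 116 CPM in the KO (log2 ratio 0.08, interval −0.02 to 0.18). Its interval also included 0 in each of the 3 fibroblast-like clusters, where adipocyte markers had 18 and 11, 10 and 0, and 1 and 0 UMIs in control and KO. The markers stood higher in clusters named mural (pericyte and smooth muscle), with 123 and 8 UMIs (118 and 104 CPM) and 35 and 9 UMIs (68.0 and 81.0 CPM). An unnamed cluster between mural and fibroblast markers had 44 and 17 UMIs (50.8 and 63.3 CPM). Pgam1 in those clusters is not given here. The small fibroblast population rich in adipocyte markers in which the study looked at Pgam1 was not rebuilt here, so the genotype labels were not checked, and "KO" below means the library with that label. Erythroid markers summed to 7497 CPM in the control and 2122 CPM in the KO.

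All 10 chaperones had a higher CPM in the KO than in the control library over all kept cells, against 40.1% of all genes tested. Among the inducible Hsp70 genes, Hspa1a stood at 28.8 CPM in the control (875 UMIs) and 58.8 CPM in the KO (559 UMIs), and Hspa1b at 80.1 and 118 CPM. The log2 ratio of KO over control was 1.03 (0.88 to 1.19) for Hspa1a and 0.56 (0.46 to 0.66) for Hspa1b, so the intervals of the near-identical pair did not overlap. Dnajb1, the J-domain partner of the inducible Hsp70, stood at 28.0 and 39.8 CPM (0.51, 0.33 to 0.68). Hsph1, an Hsp110 that serves Hsp70 as an exchange factor, stood at 24.5 and 48.7 CPM (0.99, 0.82 to 1.16). Hsp90aa1, the inducible cytosolic Hsp90, stood at 331 and 414 CPM (0.32, 0.27 to 0.37). Hspb1, a small heat shock protein that holds unfolded proteins without ATP, stood at 122 and 141 CPM (0.21, 0.12 to 0.30). The ranking within the inducible group thus ran from the Hsp70 gene Hspa1a and its exchange factor Hsph1 down to Hspb1.

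Among the constitutive members, Hspa8, the Hsc70 of resting cells, stood at 811 CPM in the control and 1305 CPM in the KO (0.69, 0.66 to 0.72). Hsp90ab1, the constitutive Hsp90, stood at 929 and 1257 CPM (0.44, 0.41 to 0.47). The mitochondrial pair differed less: Hspd1 stood at 114 and 131 CPM (0.20, 0.11 to 0.29), and Hspe1 at 190 and 223 CPM (0.23, 0.16 to 0.30). The cytosolic constitutive members therefore differed more between the libraries than the mitochondrial ones, and Hspa8 differed more than the inducible Hsp90aa1 and Hspb1.

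A KO level at least 2-fold that of the control was found for 1 of the 10 members, Hspa1a, against 2.48% of the 13604 genes with at least 50 UMIs. None was at least 2-fold lower, against 2.02% of genes. Without the 1 cell of each library with the most Hspa1a UMIs the log2 ratio of Hspa1a was 0.96, just under 2-fold. The median log2 ratio was 0.47 over the members and −0.07 over all genes tested. The summed inducible members gave 615 CPM in the control and 820 CPM in the KO (0.42, 0.38 to 0.45), and the summed constitutive members 2044 and 2916 CPM (0.51, 0.49 to 0.53). The ratio of inducible to constitutive UMIs was 0.301 in control and 0.281 in KO cells, a difference of −0.10 on the log2 scale (−0.14 to −0.05). Over all kept cells the summed constitutive group therefore stood slightly further above the control than the summed inducible group. The difference in the ratio was −0.011 when the KO classes were weighted to their shares in the control library. Of the 18700 inducible UMIs of the control, 10077 were of Hsp90aa1 and 3712 of Hspb1, the inducible members with the lowest log2 ratios. Without them the inducible sum stood further above the control than the constitutive sum.

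**Figure D1:**
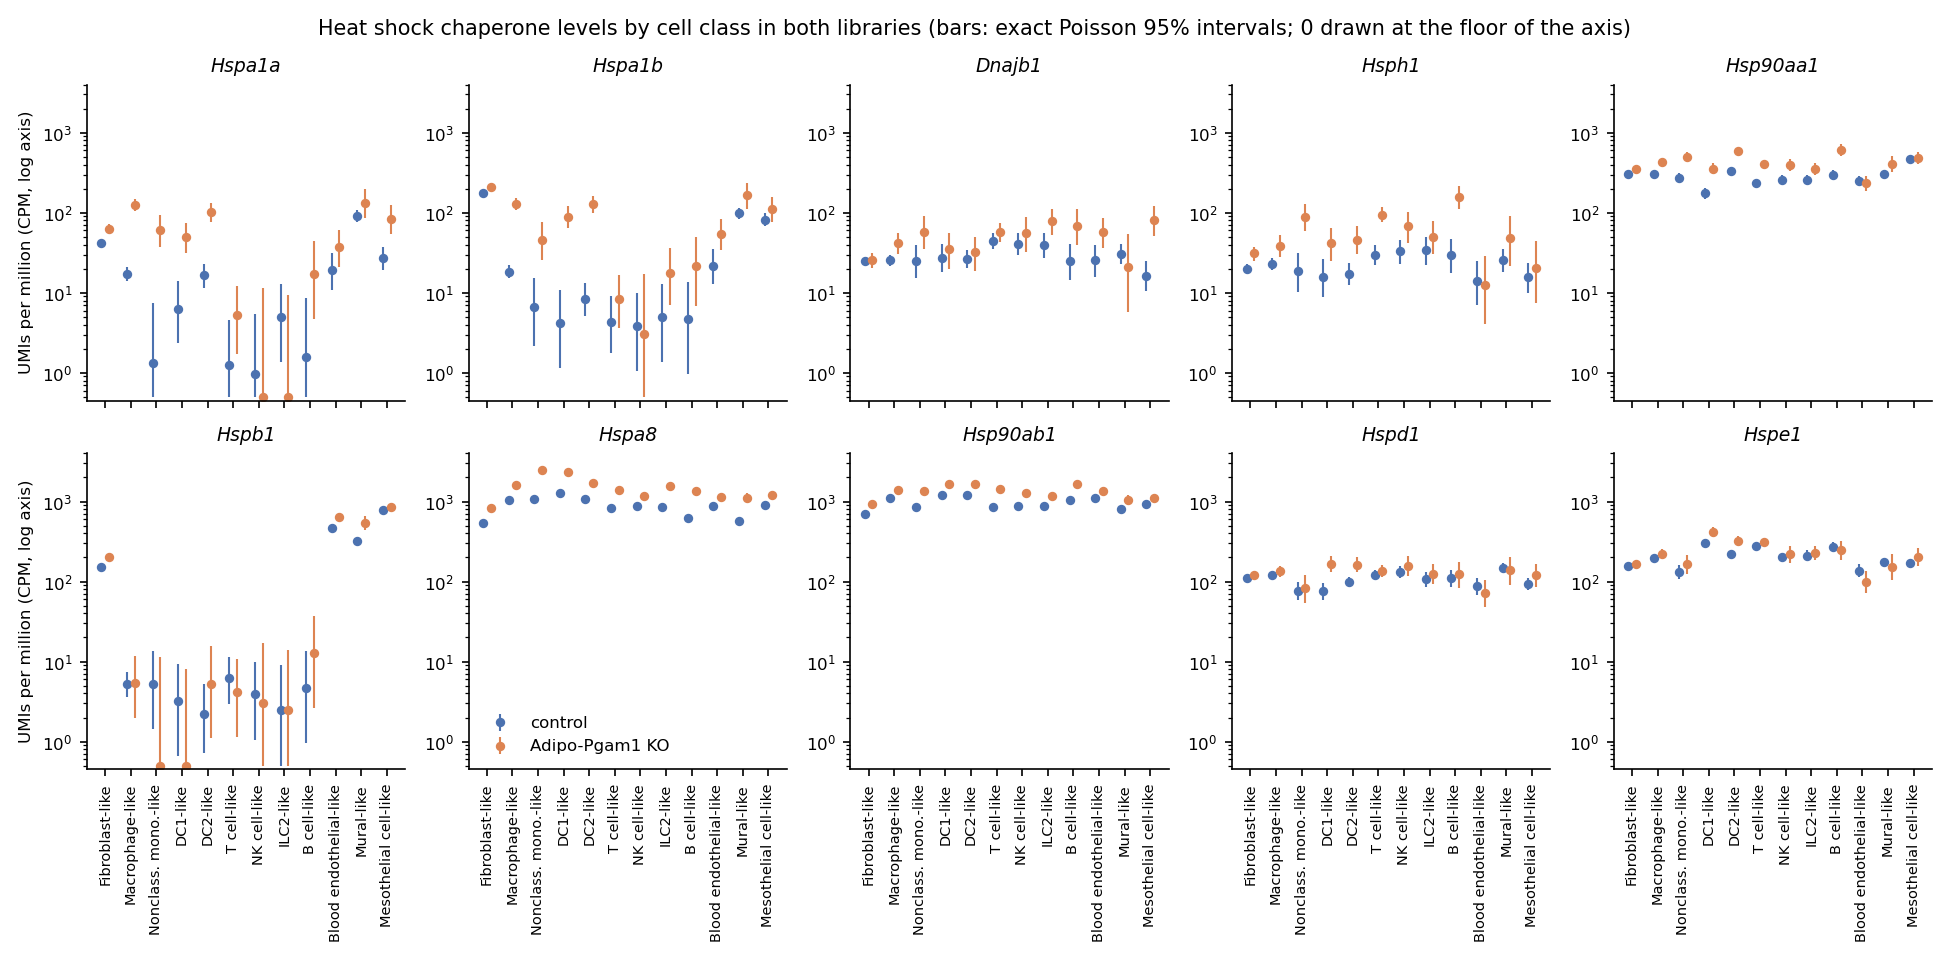
CPM (log axis) of each of the 10 chaperones in 12 cell classes, with the control library in blue, the KO library in orange and bars for exact Poisson 95% intervals; a level of 0 is drawn at the floor of the axis. Hspa8 and Hsp90ab1 lay above 500 CPM in every class of both libraries, whereas Hspb1 stayed below 13 CPM in the 8 leukocyte classes and above 150 CPM in the other 4.

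The members fell into distinct patterns over the cell classes, as the plot of levels by class shows. Hspb1 marked the stromal, vascular and mesothelial cells: it was highest in mesothelial cell-like cells (787 CPM in the control and 852 in the KO), followed by blood endothelial cell-like (470 and 645), mural cell-like (317 and 542) and fibroblast-like cells (154 and 200). Both libraries' values lay above both values of the next class at each of these steps and at the step down to the leukocytes, except between endothelial and mural cells. In the 8 leukocyte classes Hspb1 lay between 2.23 and 6.24 CPM in the control and reached at most 12.8 CPM in the KO, on 0 to 33 UMIs a class. Its KO level was above the control in all 4 classes where it had at least 50 UMIs, with an interval above 0 in fibroblast-like (0.38, 0.25 to 0.52), endothelial (0.46, 0.22 to 0.69) and mural cells (0.77, 0.45 to 1.08) and an interval that included 0 in mesothelial cells (0.11, −0.09 to 0.31). With 21 KO cells, the value in mural cells was −0.62 when each library was clustered on its own and −0.13 as a mean over cells.

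Hspa1a and Hspa1b were also mainly stromal in the control, whereas in the KO some leukocyte classes stood near the stromal level. In control cells their summed level was highest in fibroblast-like (220 CPM), mural (188 CPM) and mesothelial cells (109 CPM), and lower in endothelial (41.0 CPM), macrophage-like (35.4 CPM) and type 2 dendritic cell-like cells (24.9 CPM). It lay between 4.87 and 10.6 CPM in the other 6 leukocyte classes, which are nonclassical monocytes, type 1 dendritic cells, T cells, NK cells, group 2 innate lymphoid cells and B cells. In the KO mural (297 CPM) and fibroblast-like cells (271 CPM) were still highest, and macrophage-like and type 2 dendritic cells stood near them at 253 and 229 CPM. In KO macrophage-like and type 2 dendritic cells, however, 1 cell held 66 of the 280 and 60 of the 129 UMIs. The ratio of Hspa1a to Hspa1b also differed by class: in fibroblast-like cells it was 0.234 (control) and 0.30 (KO), against 0.939 and 0.972 in macrophage-like cells.

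The other members varied less over the classes. Hspa8 ranged in the control from 546 CPM in fibroblast-like cells to 1268 CPM in type 1 dendritic cells, and Hsp90ab1 from 704 CPM in fibroblast-like cells to 1217 CPM in type 2 dendritic cells. Hsp90aa1 ranged from 176 CPM in type 1 dendritic cells to 470 CPM in mesothelial cells. Hspe1 was highest in type 1 dendritic cells (307 CPM in the control and 415 in the KO) and was 137 and 99.3 CPM in endothelial cells. For Hspa8, Hsp90ab1, Hsp90aa1 and Dnajb1 no class had both of its values above both values of the next in the order of the 12 classes, and for Hspa1a, Hsph1, Hspd1 and Hspe1 this held for 1 of 11 neighbours. The order of the classes was most alike in the libraries for Hspe1 (Spearman's rho 0.92 over 12 classes) and least for Dnajb1 (−0.21), which ranged from 16.4 to 44.9 CPM in the control and from 21.2 to 80.8 CPM in the KO.

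**Figure D2:**
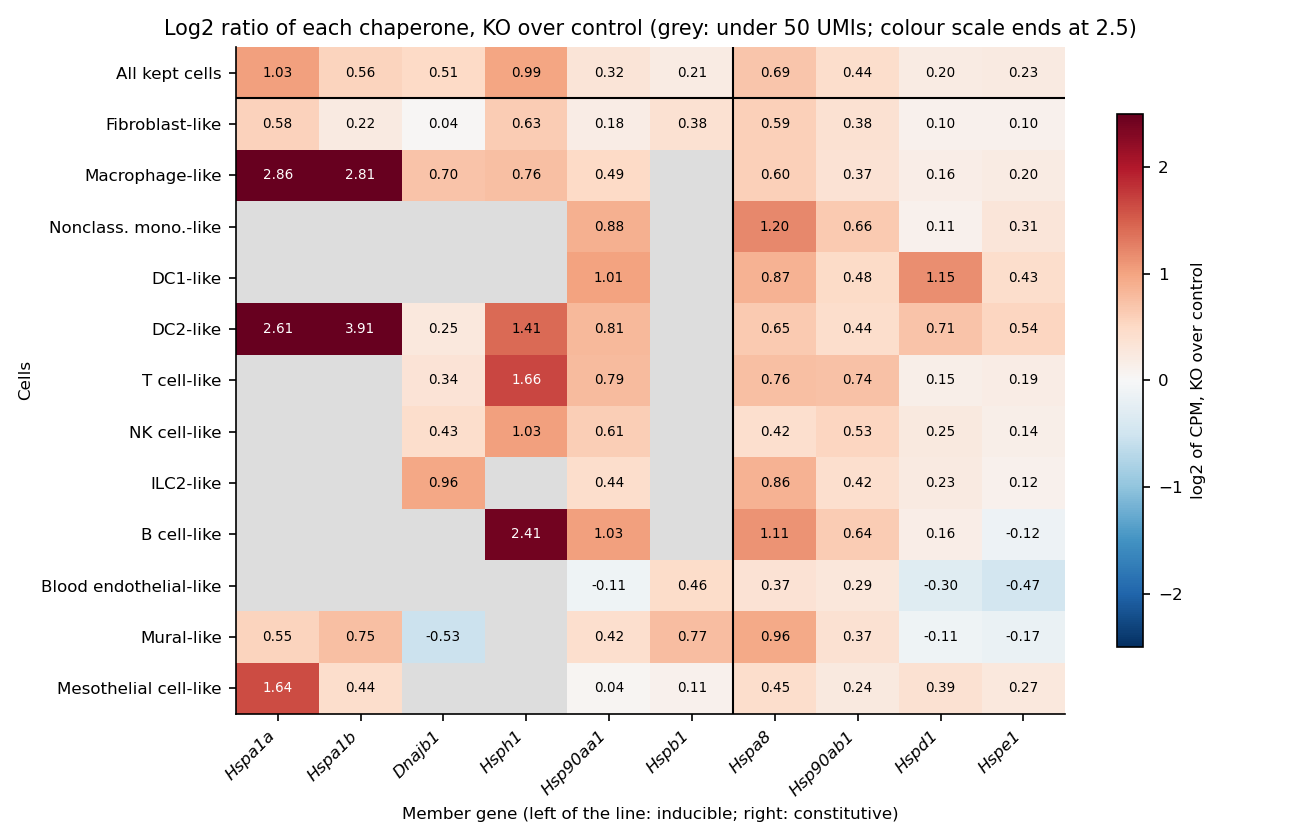
Log2 ratio of CPM, KO over control, for each chaperone (columns; inducible left of the line, constitutive right) in all kept cells and in 12 cell classes (rows), with grey where a gene had fewer than 50 UMIs. Hspa8 and Hsp90ab1 are above 0 in every row, and the darkest squares are Hspa1a and Hspa1b in macrophage-like and type 2 dendritic cells (2.61 to 3.91) and Hsph1 in B cells (2.41).

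Within the classes, 80 of the 87 pairs of a member and a class with at least 50 UMIs were higher in the KO, with an interval above 0 for 57 and below 0 for none. Among all genes tested 41.5% of such pairs were higher, from 36.4% in fibroblast-like to 50.7% in type 1 dendritic cells. The share of all such pairs with an interval above 0 is not given here, and intervals are narrower for genes with more UMIs. Without the 1 cell of each library with the most UMIs of the gene, an alternative added after the values were seen, 75 of the 87 were higher and 48 had an interval above 0. The 9 that no longer had one were Hspa1a and Hsp90ab1 in mesothelial cells, Hspa1b and Hsp90aa1 in mural cells, Dnajb1 and Hsp90aa1 in group 2 innate lymphoid cells, Hsph1 in NK cells, Hspe1 in type 1 and Hspd1 in type 2 dendritic cells. Hspa8 was higher in 12 of 12 classes, each with an interval above 0, from 0.37 in endothelial cells (885 and 1142 CPM) to 1.20 in nonclassical monocytes (1084 and 2495 CPM). Hsp90ab1 was higher in 12 of 12 as well, by 0.24 to 0.74. Among the inducible genes Hspb1 was about as even, from 0.11 to 0.77 over 4 classes, whereas others spread more widely: Hspa1a ran from 0.55 to 2.86 and Hspa1b from 0.22 to 3.91 over 5 classes, and Hsph1 from 0.63 to 2.41 over 6, with an interval above 0 in all 6. Hsp90aa1 had an interval above 0 in 10 of 12 classes, the exceptions being endothelial cells (252 and 233 CPM, −0.11, −0.48 to 0.25) and mesothelial cells (470 and 485 CPM, 0.04, −0.23 to 0.31). Dnajb1 had one in 2 of 7 classes. Hspd1 and Hspe1 had one in 2 of 12 classes each, and for both genes these were the type 1 and type 2 dendritic cells. With each cell thinned to 2000 UMIs, Hspd1 was −0.51 in type 2 and Hspe1 −0.25 in type 1 dendritic cells.

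The number of members at least 2-fold higher in the KO is given here for each class beside the share of all genes tested that passed the same bound. In fibroblast-like cells it was 0 of 10 (1.41% of genes), and 0 of 10 were at least 2-fold lower (1.74%). In macrophage-like cells it was 2 of 9, Hspa1a and Hspa1b (1.58%), and 0 of 9 were at least 2-fold lower (5.07%). In type 2 dendritic cells it was 3 of 9, Hspa1a, Hspa1b and Hsph1 (1.19%), and in type 1 dendritic cells 2 of 5, Hspd1 and Hsp90aa1 (1.72%). In nonclassical monocytes it was 1 of 5, Hspa8 (3.28%), and in B cells 3 of 6, Hsph1, Hspa8 and Hsp90aa1 (1.9%). T cells had 1 of 7, Hsph1 (0.914%, and 1.88% of genes were at least 2-fold lower), and NK cells 1 of 7, also Hsph1 (0.765%). Group 2 innate lymphoid cells had 0 of 6 (2.12%), endothelial cells 0 of 6 (1.46%), mural cells 0 of 9 (3.06%) and mesothelial cells 1 of 8, Hspa1a (1.26%). The members counted in each class are those with at least 50 UMIs there, so a gene such as Hspa1b in type 1 dendritic cells, with 4 control and 41 KO UMIs, was not among them. Of the 14 values past 2-fold, 9 stayed past it without the highest cell of each library, and the other 5 were Hsp90aa1 in type 1 dendritic (0.90) and B cells (0.58), Hspa8 in B cells (0.95), Hsph1 in NK cells (0.72) and Hspa1a in mesothelial cells (0.80).

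In macrophage-like cells the inducible Hsp70 genes stood far higher in the KO and the other members only moderately so. Hspa1a stood at 17.1 CPM in the control (107 UMIs) and 124 CPM in the KO (138 UMIs), and Hspa1b at 18.3 CPM (114 UMIs) and 128 CPM (142 UMIs). Summed, the pair was 7.13-fold higher in the KO (log2 2.83, 2.57 to 3.10), whereas in the same cells Hspa8 was 1.52-fold higher (1049 and 1591 CPM), Dnajb1 stood at 25.5 and 41.5 CPM (0.70, 0.20 to 1.19), and Hsph1 at 22.9 and 38.8 CPM (0.76, 0.23 to 1.26). The value of Hsph1 was −0.80 when cells with 200 genes or more and 20% mitochondrial UMIs or less were clustered. The class is made of 2 clusters, and the pair was higher in the KO in both. In the cluster led by Folr2 (353 control and 30 KO cells) it stood at 59.5 and 259 CPM (2.12, 1.70 to 2.54), and in that led by Mmp12 (297 and 65 cells) at 20.0 and 250 CPM (3.65, 3.26 to 4.05). The Mmp12-led cluster held the greater part of the KO macrophages and the smaller part of the control ones. Fibroblast markers summed to 364 CPM in control and 177 CPM in KO macrophage-like cells, and the part of RNA from fibroblasts in these values was not tested.

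The other mononuclear phagocytes differed in the same direction. The summed pair stood at 24.9 CPM in the control (56 UMIs) and 229 CPM in the KO (129 UMIs) in type 2 dendritic cells (3.20, 2.73 to 3.67). It stood at 10.6 and 139 CPM in type 1 dendritic cells (10 and 64 UMIs; 3.71, 2.74 to 4.84) and at 7.92 and 107 CPM in nonclassical monocytes (6 and 35 UMIs; 3.75, 2.49 to 5.29). The KO classes of monocytes and dendritic cells held only 26 to 38 cells each, and 1 KO cell held 60 of the 129 UMIs in type 2 dendritic cells, 44 of the 64 in type 1 dendritic cells and 17 of the 35 in nonclassical monocytes. Without the highest cell of each library the pair stood at 20.2 and 126 CPM (2.64, 2.08 to 3.21), at 8.57 and 46.0 CPM (2.42, 1.18 to 3.82) and at 5.35 and 59.2 CPM (3.47, 1.86 to 5.49) in these 3 classes. In lymphocytes the pair rested on few UMIs in both libraries. T cells had 5.61 CPM in the control and 13.7 CPM in the KO on 9 and 13 UMIs (1.29, −0.05 to 2.69), and NK cells 4.87 and 3.07 CPM on 5 and 1 UMIs. Group 2 innate lymphoid cells had 10.0 and 17.6 CPM on 8 and 7 UMIs. B cells had 6.24 and 38.4 CPM on 4 and 9 UMIs, of which 1 KO cell held 6.

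In T and B cells Hsph1 and the constitutive cytosolic members stood higher in the KO. In T cells Hsph1 stood at 29.9 CPM in the control and 94.8 CPM in the KO (1.66, 1.14 to 2.20), Hspa8 at 833 and 1412 CPM (0.76, 0.65 to 0.87) and Hsp90ab1 at 847 and 1414 CPM (0.74, 0.63 to 0.85). B cells had 29.6 and 158 CPM of Hsph1 (2.41, 1.58 to 3.29), 621 and 1344 CPM of Hspa8 (1.11, 0.90 to 1.33) and 299 and 610 CPM of Hsp90aa1 (1.03, 0.70 to 1.35). These rest on 133 control and 38 KO B cells and, for Hsph1, on 19 and 37 UMIs, of which 1 KO cell held 17. Without the highest cell of each library Hsph1 in B cells stood at 28.5 and 92.3 CPM (1.69, 0.70 to 2.70) and Hsp90aa1, of whose 143 KO UMIs 1 cell held 50, at 288 and 429 CPM (0.58, 0.20 to 0.94).

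In fibroblast-like cells, the class with the most UMIs, the inducible Hsp70 pair stood at 220 and 271 CPM (0.30, 0.18 to 0.41) and Hspa8 at 546 and 824 CPM (0.59, 0.53 to 0.66). The order of the inducible and the constitutive Hsp70 was thus the reverse of that in macrophage-like cells. Dnajb1 was level (24.9 and 25.6 CPM, 0.04, −0.34 to 0.40). In mural cells the pair stood at 188 and 297 CPM (0.66, 0.22 to 1.07), but this class is made of 2 clusters with unlike levels: 87.1 and 51.8 CPM in the larger (164 control and 15 KO cells) and 394 and 468 CPM in the smaller (54 and 6 cells), and within each the interval of the ratio included 0.

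**Figure D3:**
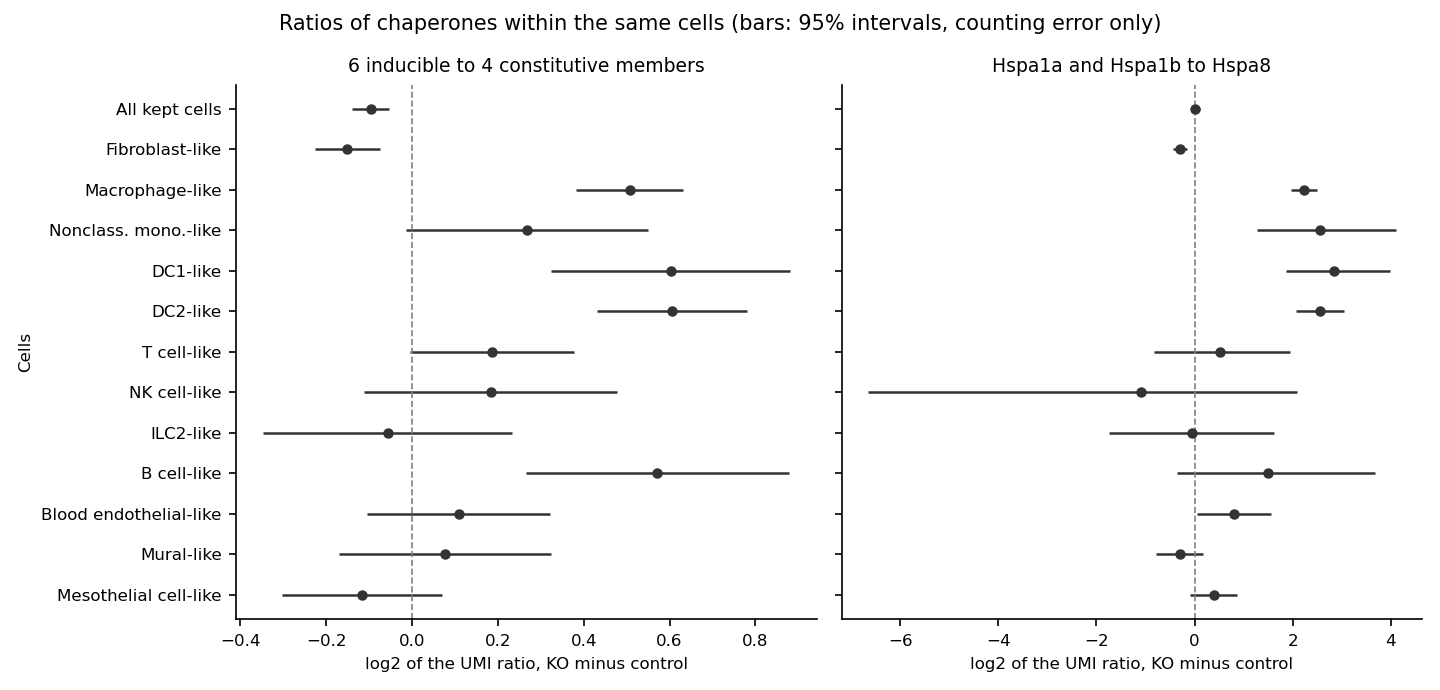
Difference between the KO and control libraries in the log2 ratio of 6 inducible to 4 constitutive members (left) and of Hspa1a and Hspa1b to Hspa8 (right), in all kept cells and each class; points are the UMI ratios and bars 95% intervals. The left ratio is below 0 in fibroblast-like cells (−0.15) and above 0 in macrophage-like, both dendritic and B cells (0.51 to 0.61).

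The ratio of inducible to constitutive UMIs, which does not depend on the total UMIs of a class, separated the classes in the same way. In fibroblast-like cells it was 0.479 for the control and 0.431 for the KO (difference −0.15, −0.23 to −0.07). In macrophage-like cells it was 0.160 and 0.228 (0.51, 0.38 to 0.63). It was also higher in the KO in type 1 dendritic cells (0.60, 0.32 to 0.88), type 2 dendritic cells (0.61, 0.43 to 0.78) and B cells (0.57, 0.27 to 0.88), and in the other 7 classes its interval included 0, with values below 0 in mesothelial (−0.12) and group 2 innate lymphoid cells (−0.06). Without the cell of each library with the most inducible UMIs it was −0.16 in fibroblast-like, 0.41 in macrophage-like, 0.31 (0.0095 to 0.61) in type 1 dendritic, 0.41 in type 2 dendritic and 0.37 (0.03 to 0.71) in B cells. The narrower ratio of Hspa1a and Hspa1b to Hspa8 was level over all kept cells (0.01, −0.08 to 0.10), lower in KO fibroblast-like cells (−0.30, −0.43 to −0.16) and higher in KO macrophage-like cells (2.23, 1.96 to 2.51), so the level value over all cells held opposite differences. Among the Hsp90 pair, the ratio of Hsp90aa1 to Hsp90ab1 was lower in KO fibroblast-like cells (−0.21, −0.32 to −0.09) and higher in KO type 1 (0.53, 0.18 to 0.88) and type 2 dendritic cells (0.38, 0.16 to 0.60). The ratio of Hspe1 to Hspd1, the 2 parts of 1 chamber, was level over all kept cells (0.03, −0.09 to 0.15). It was lower in KO type 1 dendritic cells (−0.72, −1.28 to −0.16), and its interval included 0 in every other class.

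**Figure D4:**
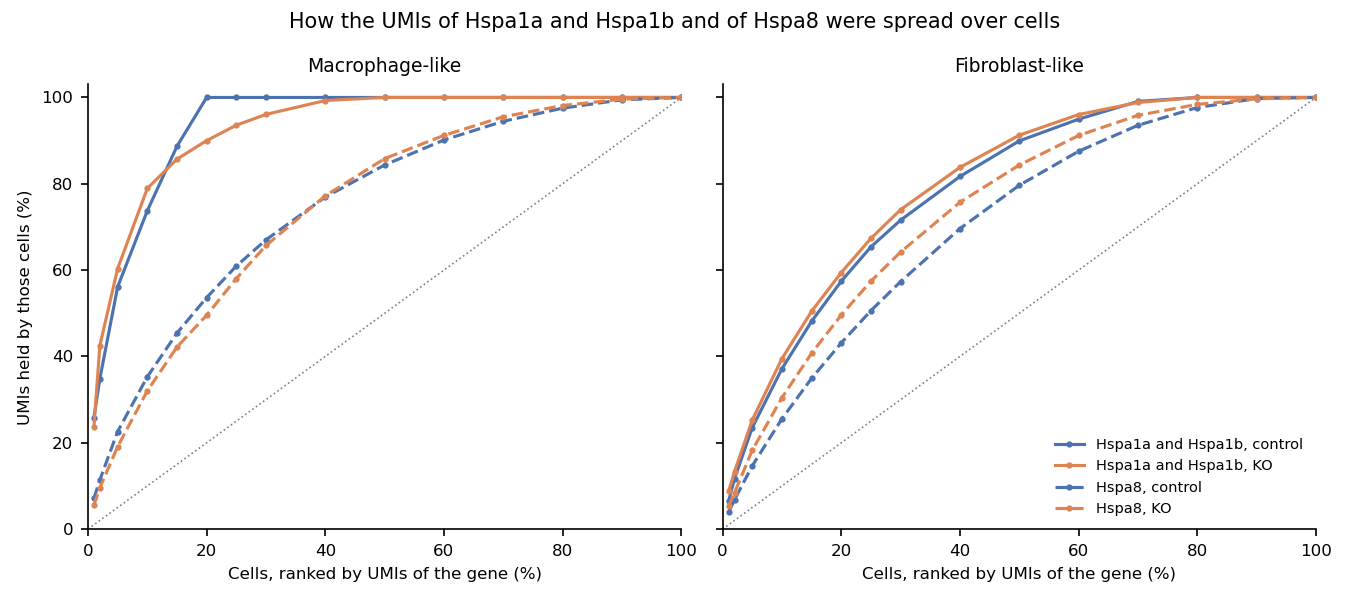
Share of the UMIs of Hspa1a and Hspa1b (solid) and of Hspa8 (dashed) held by the cells with the most UMIs, against the share of cells, in macrophage-like (left) and fibroblast-like cells (right) of the control (blue) and KO (orange) libraries; the dotted line marks even spread. In macrophage-like cells the 10% of cells with the most UMIs held 73.8% of the control UMIs of the pair and 78.9% of the KO ones.

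The UMIs of the inducible Hsp70 pair were held by few cells. In KO macrophage-like cells 40 of 95 cells had a UMI of Hspa1a or Hspa1b, 1 cell had 66 UMIs, and the 10 highest cells held 221 of the 280 UMIs. In the control 123 of 650 cells had one and the highest cell had 18. As the plot of ranked cells shows, the pair was uneven in both libraries. Hspa8 was spread more evenly, with 35.3% of its UMIs in the 10% highest control cells and 32.0% in the KO. It also had many more UMIs (6545 and 1764). In thinned KO macrophage-like cells the 10% highest held 80% of Hspa1a and 85.7% of Hspa1b UMIs. The medians for genes with like UMI totals were 48.1% and 50%. In thinned control cells these shares and medians were all 100%. With 23 and 17 control UMIs and 61 cells in the highest 10%, no other share was possible. Control unevenness beyond sparse counts could therefore not be judged. Without the 10 highest macrophage-like cells of each library, a larger part of the KO cells than of the control cells, the log2 ratio of the pair was 1.36 instead of 2.83, and without the 1 highest it was 2.61 (both were computed after the values were seen). In fibroblast-like cells the pair was found in most cells, 72.2% in the control and 74.4% in the KO.

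KO cells had more UMIs than control cells in 11 of the 12 classes, with medians of 11624 and 14426 in control and KO fibroblast-like cells and 8183 and 10866 in macrophage-like cells, so shares of cells were also taken after thinning each cell to 2000 UMIs. Among macrophage-like cells 6.15% in the control (37 of 602, 4.36% to 8.37%) and 25.3% in the KO (20 of 79, 16.2% to 36.4%) then had a UMI of the pair. Among fibroblast-like cells the shares were 32.9% and 34.7%. T cells, in which the pair was scarce, gave 0.601% in the control (0.0728% to 2.15%) and 3.5% in the KO (1.14% to 7.97%), at median depths of 4500.5 and 6194 UMIs before thinning. NK cells gave 1.80% (4 of 222) and 0% (0 of 50), and group 2 innate lymphoid cells 1.75% (3 of 171) and 0% (0 of 57). B cells gave 0% (0 of 131) and 2.78% (1 of 36). Whether these lymphocyte shares are background was not tested. Hspa8 was found in 73.5% of thinned control cells and 84.7% of thinned KO cells, and Hsph1 in 5.11% of control and 16.8% of KO T cells.

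The wider chaperone network did not stand higher throughout. Of 74 other genes in 7 lists that had at least 50 UMIs, 52 were above 0 over all kept cells, against 40.1% of all genes tested, with a median log2 ratio of 0.10 against −0.07 over all genes, and 1, Gadd45b, was at least 2-fold higher. In the cytosolic Hsp70 and Hsp110 system 10 of 20 were above 0 (median −0.0018): Dnaja1, a J-domain partner of Hspa8, stood at 238 and 358 CPM (0.59) and Hspa4 at 99.9 and 123 CPM (0.30), whereas Bag3, an HSF1 target that links Hsp70 to autophagy, stood at 57.5 and 51.5 CPM (−0.16). The other extremes of this list were Dnaja4 (0.33) and Hspa13 (−0.16). Of the Hsp90 co-chaperones 9 of 10 were above 0 (median 0.28), among them Chordc1 (31.9 and 49.0 CPM, 0.62) and Fkbp4 (44.0 and 63.0 CPM, 0.52), with Ptges3 (0.02) and Ppid (−0.0030) the lowest. The chaperonin that folds actin and tubulin had 5 of 7 subunits above 0 with a median of 0.10, from Tcp1 (−0.0038) and Cct8 (−0.03) to Cct3 (0.12) and Cct7 (0.13). Of the other small heat shock proteins 1 of 5 was above 0 over all kept cells (median −0.18), Cryab with 61.8 and 67.4 CPM, and Hspb7 (−0.43), Hspb8 (−0.25) and Hspb2 (−0.13) were below it. Within mural cells, however, 5 of 5 were above 0 (median 0.53, 21 KO cells), against 40.6% of all genes tested there. In fibroblast-like cells 2 of 4 were above 0 (median 0.14) and in mesothelial cells 0 of 2 (median −0.12). Mural cells made up 6.03% of the kept control cells and 2.24% of the kept KO cells.

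In the endoplasmic reticulum 13 of 15 chaperones were above 0 (median 0.16). Hspa5, the Hsp70 of this compartment, stood at 562 and 785 CPM over all kept cells (0.48), at 651 and 1185 CPM in fibroblast-like cells (0.86) and at 696 and 689 CPM in macrophage-like cells (−0.02). Creld2, which is made with it under endoplasmic reticulum stress, stood at 29.5 and 59.3 CPM in fibroblast-like cells (1.01), and Manf at 127 and 188 CPM over all kept cells (0.57). Canx (−0.18) and Serpinh1 were below 0, the latter, the collagen chaperone, with 547 and 451 CPM (−0.28). Of the mitochondrial chaperones and proteases 6 of 7 were above 0 (median 0.10), the exception being Hspa9, the mitochondrial Hsp70, with 104 and 86.6 CPM (−0.27), with Trap1 next (0.0024), and Grpel1 (0.28) and Lonp1 (0.23) were the highest. Among the heat shock factors and other response genes 8 of 10 were above 0 (median 0.29): the ubiquitin gene Ubb stood at 591 and 1021 CPM (0.79), the stress gene Gadd45b at 56.8 and 115 CPM (1.01), Hsf1 itself at 18.5 and 17.6 CPM (−0.08, −0.34 to 0.17), and Hsf2 at 15.2 and 14.1 CPM (−0.11, −0.40 to 0.17). Among these genes Mt2, a metallothionein, was past 2-fold in fibroblast-like cells (89.98 and 185 CPM, 1.04).

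Immediate early genes, which cells switch on during dissociation, were also higher in the KO over all kept cells. The 15 listed genes summed to 5944 CPM in the control and 8226 CPM in the KO (0.47, 0.46 to 0.48). Of these genes 14 were above 0, against 40.1% of all genes tested. Socs3, a feedback inhibitor of cytokine signalling, was past 2-fold (60.3 and 125 CPM, 1.05), against 2.48% of all genes at least 2-fold higher. The sum was higher in the KO in 11 of the 12 classes, each with an interval above 0, and was 4862 and 7428 CPM in fibroblast-like cells (0.61) and 7713 and 9696 CPM in macrophage-like cells (0.33). For the sum the exception was type 2 dendritic cells, with 8639 and 7755 CPM (−0.16, −0.20 to −0.11). By gene, 13 of 15 were above 0 in fibroblast-like cells (36.4% of all genes tested) and 14 of 15 in macrophage-like cells (38.7%). In type 1 dendritic cells 6 of 13 with at least 50 UMIs were above 0 (median −0.0094), near the 50.7% of all genes. Nonclassical monocytes had 8 of 14 (median 0.047, 44.3% of all genes). In fibroblast-like cells 6 of the 15 were past 2-fold, against 1.41% of all genes tested. They were Atf3 (log2 ratio 1.95), Socs3 (1.77), Btg2 (1.44), Nr4a1 (1.33), Fos (1.18) and Fosb (129 and 365 CPM). The part of dissociation in the chaperone values was not tested.

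**Figure D5:**
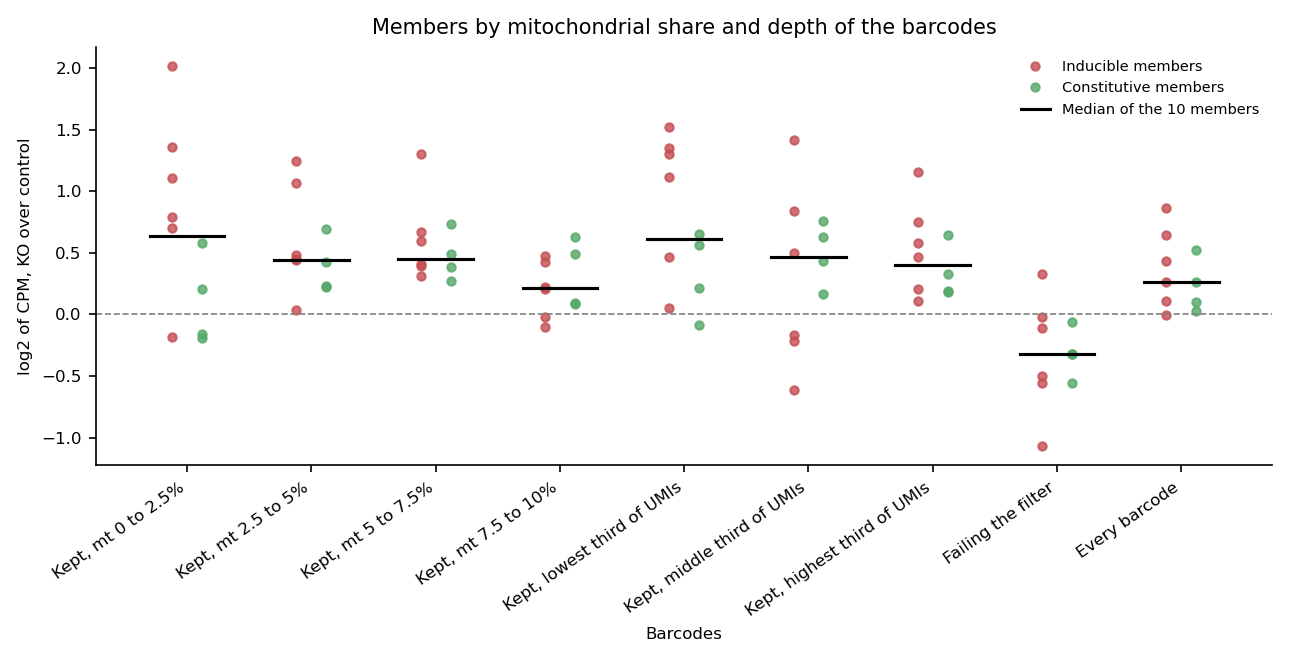
Log2 ratio of CPM, KO over control, for each inducible (red) and constitutive (green) member in kept cells split by mitochondrial share (mt) and by depth, in barcodes that failed the filter and in every barcode; black lines are medians over the 10 members. The medians of the kept cells lie between 0.22 and 0.64, and that of the failing barcodes at −0.32.

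The direction depended on the filter on barcodes. In kept cells split by mitochondrial share, 7, 10, 10 and 8 of the 10 members were higher in the KO from the lowest to the highest bin, with medians of 0.64, 0.44, 0.45 and 0.22, as the plot by barcode quality shows. Split into 3 parts of like size by depth, 9, 7 and 10 were higher, and in the middle part Hspa1a (27.5 and 23.6 CPM), Hspa1b (60.8 and 39.8 CPM) and Hspb1 (85.9 and 76.5 CPM) had the higher level in the control. In the barcodes that failed the filter, 4641 in the control and 1772 in the KO, 1 of 10 was higher, Hspa1a with 9.86 and 12.4 CPM, and Hsp90aa1 stood at 480 CPM in the control and 229 CPM in the KO. Of these, the barcodes with over 10% mitochondrial UMIs (3584 and 1258) had 4 of 10 higher, with a median of −0.04. Over every barcode 9 of 10 were higher, with a median of 0.26. Among all genes, 218 were at least 2-fold higher and 558 lower with every barcode that was no doublet, against 337 and 275 in kept cells. What these failing barcodes held was not tested. The share of all genes higher in the KO is not given here for these parts of the barcodes.

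Across the 24 values of the 12 classes in both libraries, log2 CPM of Hspa1a and Hspa1b went together (Pearson's r 0.88), as did those of Hspa8 and Hsp90ab1 (0.81), whereas Hspb1 and Hspe1 went opposite ways (−0.63). These points share libraries and depth and are given as a description. Among 11119 genes, the levels most like the summed Hspa1a and Hspa1b were those of Slc39a1 (0.83), Pdzd11 (0.82), Hdlbp (0.81), Myof (0.80) and Timm8b (0.79). Those most like the summed constitutive members were Rpl15 (0.87), Gm11808 (0.82), Gm10020 (0.79), Cacybp (0.79) and Rpl29 (0.77).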

How the data were processed

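The deposited files hold raw UMI counts per gene and cell barcode, made by the authors with 10x Genomics 3′ chemistry and Cell Ranger 3.0.1 on mm10 per the submitters' processing notes, which also name Seurat 3.1.5 and R 4.0.1. The members and lists were chosen with earlier results of these data known. Cells needed 500 detected genes or more and a mitochondrial share of 10% or less, and the highest Scrublet scores (0.8% per 1000 barcodes) were removed with scanpy 1.11.5. Clustering used 2000 variable genes, 30 components, 20 neighbours and Leiden (leidenalg 0.10.2) at resolution 0.5, and left out the members, the chaperone lists, immediate early genes and Pgam1. A cluster was named "X-like" when its markers led (mean z above 0.5, 0.75 ahead of the next class), with at least 3 markers found in at least 10% of its cells; that a class competes only with 3 such markers was set after seeing cluster names, before member values. In the text the suffix is left out after first use.

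Counts were summed per library and class and divided by the total UMIs (CPM). Poisson, conditional binomial (ratios), odds ratio and Clopper-Pearson (shares) intervals are 95% and cover counting error only; UMIs of 1 cell are not independent, and cells are not replicates. Because UMIs count molecules at their 3′ end, CPM was not divided by gene length. In the count of 2-fold differences, genes had at least 50 UMIs over both libraries and counts under 3 were set to 3. Genes outside the members were named by a fixed rule: in each list the 2 with the largest and the 2 with the smallest ratio, genes past 2-fold in all kept cells or in fibroblast-like cells (immediate early genes by this part of the rule only), and for likeness the 5 highest correlations; Hspa4 and Hspa5 were named after their values were seen. Gene positions came from GENCODE vM21 and promoters from RefSeq, both GRCm38. Biopython 1.88, edgeR 4.0.16 in R 4.3.3 (TMM factors only), scipy 1.17.1, pandas 2.3.3 and numpy 2.4.6 under Python 3.11.15 were used, and the ratio script was tested on simulated data. Alternatives of filter, doublets, clustering, depth, scaling and count minimum were computed. Leaving out the 10 cells highest in Hspa1a and Hspa1b, leaving out the 1 cell highest in the gene, and leaving out low-depth clusters 11 and 15, were added after seeing the data.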

Additional observations from a re-analysis of the deposited data

Results flagged for a closer look

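The ratio of inducible to constitutive UMIs in fibroblast-like cells was flagged because it differed from the control in the opposite direction to other classes. It was lower in the KO library (log2 difference −0.15, −0.23 to −0.07), whereas in 4 classes, the macrophage-like, type 1 and type 2 dendritic and B cell-like cells, it was higher with an interval above 0. In mesothelial (−0.12) and group 2 innate lymphoid cells (−0.06) it was also below 0, with an interval that included 0. With 1 library for each genotype the difference between classes was not tested.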

How the results depend on the processing

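No paired analysis was possible because each genotype had 1 library, and no library could be left out. The median of the 10 members stayed above 0 under all alternatives (0.27 to 0.51), and 10 of 10 were higher in the KO except with every barcode that was no doublet (9 of 10). Alternatives of clustering alone keep the same cells, so these values over all kept cells could not move under them. The log2 ratio of the summed inducible members (0.42) was 0.27 with 200 genes or more and 20% mitochondrial UMIs or less, 0.14 with every barcode, 0.48 thinned, 0.51 as a mean per 10000 over cells, 0.46 with TMM or median-of-ratios factors, 0.49 at the control's class shares, 0.72 without Hsp90aa1 and Hspb1, 0.36 without the 10 highest cells and 0.47 without low-depth clusters 11 and 15. That of the constitutive members (0.51) was 0.34 with every barcode, 0.55 thinned, as a mean or with TMM, 0.56 with median-of-ratios, and 0.56 without Hspd1 and Hspe1. The difference in their ratio (−0.10) was −0.22 with 200 genes and 20%, −0.048 with 1000 genes and 5%, −0.20 with every barcode, −0.037 as a mean, −0.14 without the 10 highest cells, −0.0437 without the low-depth clusters and −0.011 at the control's class shares. Genes at least 2-fold higher and lower (337 and 275) were 218 and 558 with every barcode, 584 and 469 at 20 UMIs, 133 and 122 at 200 UMIs and 887 and 968 at 1.5-fold; 470 were lower with 200 genes and 20%, 443 lower as a mean, and 145 higher when thinned. Of the values of 1 member in 1 class, 0 to 13 of at most 87 changed sign under an alternative, most when cells were thinned. Those whose interval had been above 0 were, with every barcode, Hsp90aa1 over all cells (−0.037) and, in mural cells, the inducible (−0.12) and constitutive sums (−0.20), Hspa1b (−0.18), the Hspa1a and Hspa1b sum (−0.20), Hsp90aa1 (−0.37) and Hsp90ab1 (−0.44); when thinned, Hspa1a in fibroblast-like cells (−0.02), Hsp90ab1 in mesothelial cells (−0.10), and Hspd1 (−0.51) and Hspe1 (−0.25) in dendritic cells; as a mean, Hspb1 (−0.13) and the pair (−0.08) in mural cells; with 200 genes and 20%, Hsph1 in macrophage-like cells (−0.80); with 1000 genes and 5%, Hspb1 (−0.07) and the inducible sum (−0.13) in endothelial cells; without doublet removal, Dnajb1 in group 2 innate lymphoid cells (−0.38); and with each library clustered on its own, Hspb1 in mural cells (−0.62). Without the 10 highest cells of each library, which takes a larger part of the smaller KO classes, the pair was −0.20 in endothelial (1.16 with them) and −3.15 in mesothelial cells, Hspa8 −0.13 in mesothelial cells, and in mural cells Hspb1 −1.69 and the inducible sum −0.47. Without the 1 cell with the most UMIs of the gene in each library 5 of the 87 values changed sign, of which Dnajb1 in group 2 innate lymphoid cells (−0.06) had had an interval above 0. The difference of the inducible to constitutive ratio in type 1 dendritic cells was −0.01 with every barcode. The cause of these shifts was not tested. The ratio of fibroblast-like to T cell-like levels gave no value with 1000 genes and 5%, for lack of UMIs in T cells. Scalings moved the median of all genes by at most 0.106.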

Other observations

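A cluster that received no name, led by genes of ciliated cells such as Foxj1, Ccdc153 and Dynlrb2 (85 control and 27 KO cells, median 2154 UMIs over both libraries), showed the opposite of the classes above for the inducible Hsp90. Hsp90aa1 stood at 2748 CPM in the control and 1071 CPM in the KO (log2 ratio −1.36, −1.59 to −1.14), Hsph1 at 240 and 103.3 CPM (−1.22, −2.02 to −0.49) and Dnajb1 at 81.0 and 21.7 CPM (−1.90, −3.87 to −0.39). In the same cells Hsp90ab1 stood at 1964 and 2637 CPM (0.43, 0.26 to 0.59) and Hspa8 at 1313 and 1213 CPM (−0.11, −0.35 to 0.12), and Hspa1a and Hspa1b together had 5 and 3 UMIs. Without the 1 cell with the most UMIs of the gene in each library Hsp90aa1 was −1.10 (−1.43 to −0.79), Hsph1 −1.56 (−3.06 to −0.36), Hspa8 0.34 (0.04 to 0.62) and Dnajb1 −1.66, with an interval that included 0.

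Hspa1a and Hspa1b together reached 338 CPM in the control and 398 CPM in the KO in a further unnamed cluster between mural and fibroblast markers (80 and 20 cells; 0.24, −0.10 to 0.56).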
